A study of Mus musculus with 8 samples.

Results

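Pericyte marker genes were examined in the inguinal white adipose tissue of mice lacking lysophosphatidic acid receptor 4 (LPA4). The 6 genes are Rgs5, Notch3, Cspg4, Mcam, Abcc9 and Kcnj8, chosen as pericyte markers that are not contractile genes, and all 6 were measured among 18193 genes in all. A probe set counted for a gene when the platform annotation named that gene and no other, which gave 13 of 45101 probe sets, and the probe set with the highest mean over the 8 arrays stands for its gene. The study set 4 LPA4-KO mice (Lpar4 -/Y) against 4 WT mice, with 1 array per mouse. All were male littermates on a C57BL/6 background, aged 12 weeks and fed standard chow, and the groin fat depot was taken whole. The labels describe a receptor deficiency in the whole animal and name no cell type or promoter, so vessel cells, adipocytes and every other cell of the depot share the genotype. The comparison addresses whether these vessel-wall markers differ in fat without LPA4, a G protein-coupled receptor for the lipid mediator lysophosphatidic acid.

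Pericytes are the mural cells that wrap capillaries and small venules inside the vessel's basement membrane. They are held there by platelet-derived growth factor B from the endothelium, which acts on the receptor Pdgfrb, and by Notch signalling between the endothelium and the mural cell. They share much of their gene expression with vascular smooth muscle, but most capillary pericytes contain little of the contractile proteins that define smooth muscle, such as Acta2 and Myh11. In adipose tissue they lie along the dense capillary bed that supplies the adipocytes.

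No pericyte marker passed the test of LPA4-KO against WT, and the differences of the 6 genes went both ways. Values are log2 signals and differences are LPA4-KO minus WT. Of the 6 genes 0 passed in limma (Benjamini-Hochberg adjusted p from 0.426 to 0.976 over all genes, threshold 0.05), 0 had an unadjusted p under 0.05, and 0 separated the genotypes without overlap. Over all genes 4.03% passed, 22.9% had an unadjusted p under 0.05, and 16.2% separated the genotypes without overlap (33.2% among genes that vary between arrays). The 4 genes with a positive difference were Rgs5, Notch3, Cspg4 and Abcc9, and the 2 with a negative one were Mcam and Kcnj8. The median difference of the 6 genes was 0.02, and that of all genes was 2.86e-05. In bulk tissue fewer cells of a type and less RNA per cell cannot be told apart, and this holds for every value here.

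In the whole series 733 genes passed, 434 higher and 299 lower in LPA4-KO. When the labels' replicate number entered limma as a block this count was 0, with 3703 genes (20.4% of 18193) at an unadjusted p under 0.05. Every call over all genes is therefore lost with this block, so its loss says nothing particular to a gene named below. Many probe sets hardly moved at all: 78.7% of them had an SD under 0.01 across arrays and are called near constant, and the 5173 genes above that SD are called varying. All 6 pericyte markers were varying genes through the probe set that represents them. Tested among varying genes only, where 27.1% passed, or 19.5% with the replicate block, 0 of the 6 passed in either fit. Lpar4 itself was covered by 3 probe sets that disagreed: 1452424_at was lower in every LPA4-KO array (5.74 to 5.91) than in any WT array (6.80 to 7.04), whereas 1434186_at and 1439665_at were higher in every LPA4-KO array, by 0.71 and 0.53. Where these probe sets lie relative to the deleted part was not analysed here.

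**Figure D1:**
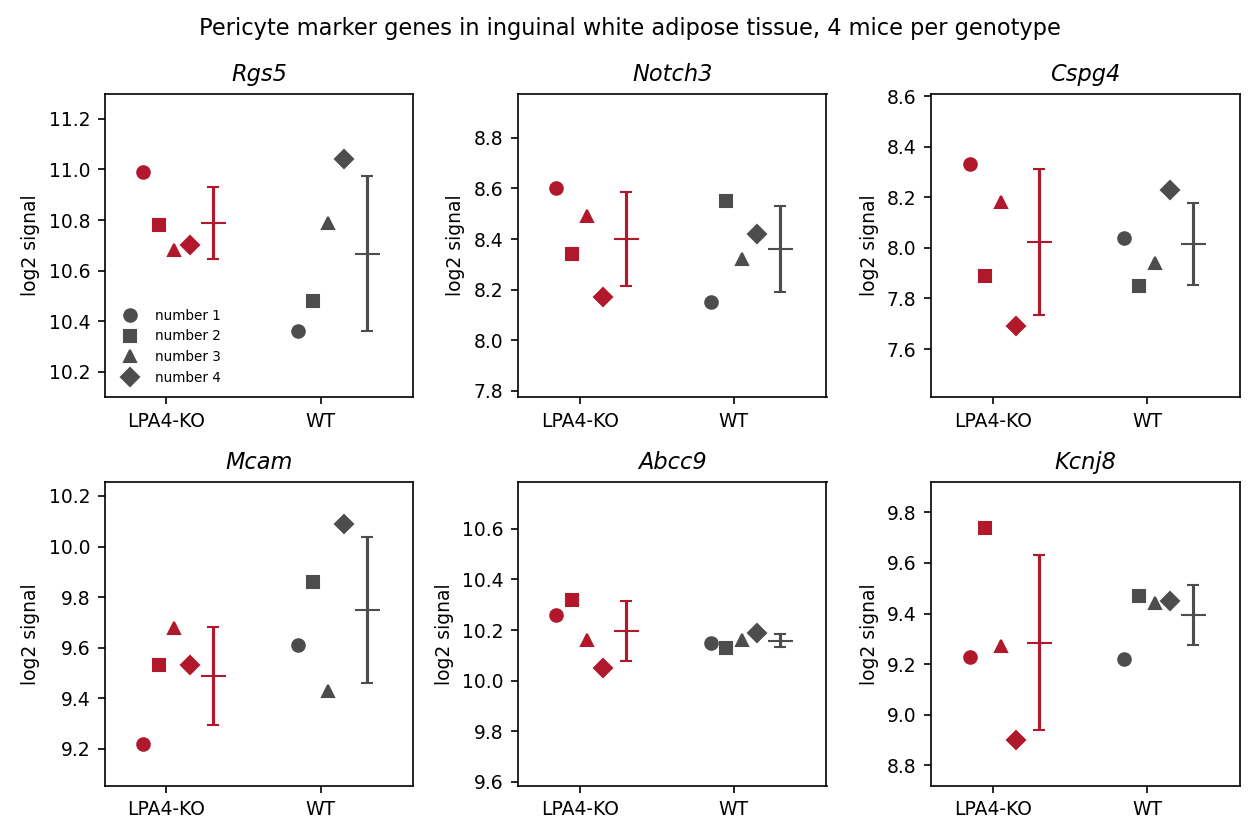
Log2 signal of the 6 pericyte markers, with LPA4-KO arrays (red) left of WT arrays (grey). Each point is 1 mouse, its shape gives the replicate number, bars show mean ± SD (n = 4 each), and every panel spans the same height on the log2 scale. The genotypes overlap in all 6 panels.

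Rgs5 encodes a GTPase-activating protein that shortens signalling by heterotrimeric G proteins and is among the most used markers of pericytes. Its log2 signal was 10.99, 10.78, 10.68 and 10.70 in LPA4-KO mice 1 to 4, against 10.36, 10.48, 10.79 and 11.04 in WT mice 1 to 4. The LPA4-KO arrays lay together within the wider WT range, so that both the lowest and the highest value came from WT mice. Rgs5 averaged 10.79 ± 0.14 in LPA4-KO and 10.67 ± 0.31 in WT (SD, n = 4 each). The difference was 0.12 ± 0.16 (SE), with a 95% interval of -0.28 to 0.52 and a limma adjusted p of 0.717.

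Notch3 encodes the Notch receptor that is found chiefly on mural cells. Its log2 signal was 8.60, 8.34, 8.49 and 8.17 in LPA4-KO mice and 8.15, 8.55, 8.32 and 8.42 in WT mice. The 2 ranges nearly coincided. The difference was 0.04 ± 0.12 (SE), with a 95% interval of -0.25 to 0.34 (limma adjusted p = 0.875).

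Cspg4 encodes the membrane-spanning chondroitin sulfate proteoglycan NG2, the classical surface marker of pericytes in many tissues. Its log2 signal was 8.33, 7.89, 8.18 and 7.69 in LPA4-KO mice and 8.04, 7.85, 7.94 and 8.23 in WT mice. The LPA4-KO mice held both the highest and the lowest value, and the means were 8.02 ± 0.29 in LPA4-KO and 8.01 ± 0.16 in WT (SD, n = 4 each). The difference of 0.01 ± 0.16 (SE) had a 95% interval of -0.38 to 0.40 (limma adjusted p = 0.976).

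Mcam encodes an adhesion molecule of the immunoglobulin family that binds laminins of the vessel wall, and it is made by endothelial cells as well as by pericytes. It had the largest difference of the 6 genes. Its log2 signal was 9.22, 9.53, 9.68 and 9.53 in LPA4-KO mice and 9.61, 9.86, 9.43 and 10.09 in WT mice. The 2 highest values were from WT mice 4 and 2 and the lowest from LPA4-KO mouse 1, but WT mouse 3 lay below 3 of the 4 LPA4-KO mice. The difference was -0.26 ± 0.17 (SE), a signal ratio of 0.836, with a 95% interval of -0.67 to 0.15 (limma adjusted p = 0.426). Without WT mouse 4 it was -0.14 and without WT mouse 3 it was -0.36, neither of which passed.

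Abcc9 and Kcnj8 encode the 2 kinds of subunit of the ATP-sensitive potassium channel of pericytes and vascular smooth muscle: Abcc9 the sulfonylurea receptor that senses nucleotides, and Kcnj8 the pore. The 2 genes are neighbours on chromosome 6, with 0 protein-coding genes between them in the GRCm38.p6 gene table. Abcc9 was the steadiest of the 6 genes, with a log2 signal of 10.26, 10.32, 10.16 and 10.05 in LPA4-KO mice and 10.15, 10.13, 10.16 and 10.19 in WT mice. The WT mice lay within the range of the LPA4-KO mice. The difference was 0.04 ± 0.06 (SE), and the 95% interval of -0.11 to 0.18 was the narrowest of the 6 (limma adjusted p = 0.773).

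Kcnj8 had a log2 signal of 9.23, 9.74, 9.27 and 8.90 in LPA4-KO mice and 9.22, 9.47, 9.44 and 9.45 in WT mice. As for Abcc9, the highest and the lowest value were both from LPA4-KO mice, from mouse 2 and mouse 4. The difference was -0.11 ± 0.18 (SE), with a 95% interval of -0.54 to 0.32 (limma adjusted p = 0.765). The LPA4-KO mice spread more (SD 0.34) than the WT mice (SD 0.12, n = 4 each), and so they did for Abcc9 (0.12 in LPA4-KO and 0.03 in WT); the difference in spread was not tested.

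Since Abcc9 and Kcnj8 are neighbours and shared their highest and lowest mouse, the 250 bases before the start of each are shown, from RefSeq on GRCm38.p6. That of Abcc9 is chr6:142702275-142702524 and that of Kcnj8 chr6:142571615-142571864, both on the minus strand and printed 5′ to 3′. Capitals mark matches to the motifs searched.
Abcc9: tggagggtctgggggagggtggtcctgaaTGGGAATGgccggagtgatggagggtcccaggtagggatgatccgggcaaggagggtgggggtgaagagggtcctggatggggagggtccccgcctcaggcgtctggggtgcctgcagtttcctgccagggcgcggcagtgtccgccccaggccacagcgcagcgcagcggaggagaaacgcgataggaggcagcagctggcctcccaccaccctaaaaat
Kcnj8: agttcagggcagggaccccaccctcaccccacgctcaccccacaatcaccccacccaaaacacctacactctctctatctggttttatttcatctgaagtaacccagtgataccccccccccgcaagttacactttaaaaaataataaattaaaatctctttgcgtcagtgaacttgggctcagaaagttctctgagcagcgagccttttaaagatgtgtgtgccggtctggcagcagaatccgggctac

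The motifs searched on both strands were TGGGAA, the core bound by the DNA-binding partner of the Notch receptors, GGAATG, the core bound by TEAD factors, and the CArG box of serum response factor. Abcc9 held 1 match each to TGGGAA and GGAATG, which overlap in the capitals and begin 221 and 219 bases before the start. The windows of Kcnj8, Rgs5, Notch3, Cspg4 and Mcam held no match to any of the 3. Over all 32851 promoters in the table, 21.6% held TGGGAA, 12.6% GGAATG and 1.47% a CArG box in the same 250 bases. The Kcnj8 window was poorer in G and C (49.2%) than that of Abcc9 (66.8%).

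No other probe set of the members passed either. Of the 13 probe sets 0 passed in limma over all probe sets, where 1.98% did (lowest adjusted p = 0.452), and 0 separated the genotypes. Rgs5 was covered by 3 varying probe sets, and the 2 that do not represent it differed by 0.14 (1420942_s_at, whose probes are shared between transcripts) and by less than 0.01 (1420941_at). Abcc9 was covered by 2 varying probe sets, with differences of 0.04 and 0.05. The probe sets that represent Abcc9 (1435752_s_at) and Notch3 (1421965_s_at) also have probes shared between transcripts. Of the probe sets 4 were near constant, 1 each for Rgs5 (1420940_x_at), Notch3 (1421964_at), Cspg4 (1450944_at) and Abcc9 (1420408_a_at). Mcam and Kcnj8 were each covered by 1 probe set only. The means of the 6 representing probe sets lay between percentile 79.2 (Cspg4) and 97.7 (Rgs5) of all probe sets.

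The labels number the mice 1 to 4 in both genotypes, and the arrays parted by these numbers. Skeletal muscle genes had list means of 8.60 to 9.23 in numbers 1 and 2 of both genotypes and 6.33 to 7.03 in numbers 3 and 4. Whether muscle was dissected with the fat was not tested. Rgs5 differed in opposite directions in the 2 sets of numbers. In numbers 1 and 2 it was 10.99 and 10.78 in LPA4-KO against 10.36 and 10.48 in WT, a difference of 0.47. In numbers 3 and 4 it was 10.68 and 10.70 in LPA4-KO against 10.79 and 11.04 in WT, a difference of -0.22. LPA4-KO lay above WT in 1 set and below it in the other, without overlap in either.

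Its probe set 1420941_at did the same, with differences of 0.18 in numbers 1 and 2 and -0.17 in numbers 3 and 4, while 1420942_s_at gave 0.34 and -0.05. These probe sets read the same RNA samples and are not independent. The interaction of genotype and number set for Rgs5 was -0.69 ± 0.17 (SE), which did not pass in limma over all genes (adjusted p = 0.804) or among varying genes (0.479); over all genes 0 passed and 5.89% had an unadjusted p under 0.05. Among varying genes 3.48% turned without overlap in this way. Abcc9 did so too, at 0.15 and -0.08, although LPA4-KO mouse 3 and WT mouse 3 were equal at the 2 decimals given (10.16), with an interaction of -0.22 ± 0.07 (SE, limma adjusted p = 0.808).

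The other 4 members gave differences in numbers 1 and 2 and in numbers 3 and 4 as follows. Notch3 had 0.12 and -0.04, and Cspg4 had 0.17 and -0.15. Kcnj8 had 0.14 and -0.36. Mcam was lower in LPA4-KO in both, by -0.36 and -0.15. The skeletal muscle list differed between the genotypes by 0.10 and 0.04 in the same 2 sets. The mean of the 6 pericyte markers differed by 0.11 and -0.17. Some other cell type lists also differed more between the sets than skeletal muscle. These were macrophage genes by -0.17 and 0.77, progenitor and fibroblast genes by less than 0.01 and by 0.37, and blood endothelium by -0.12 and -0.32. Others hardly changed, as contractile genes (-0.36 and -0.34), Schwann cell and nerve genes (-0.36 and -0.35) and other mural genes (-0.05 and -0.04). The part of these cell types in the members' values was not tested.

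**Figure D2:**
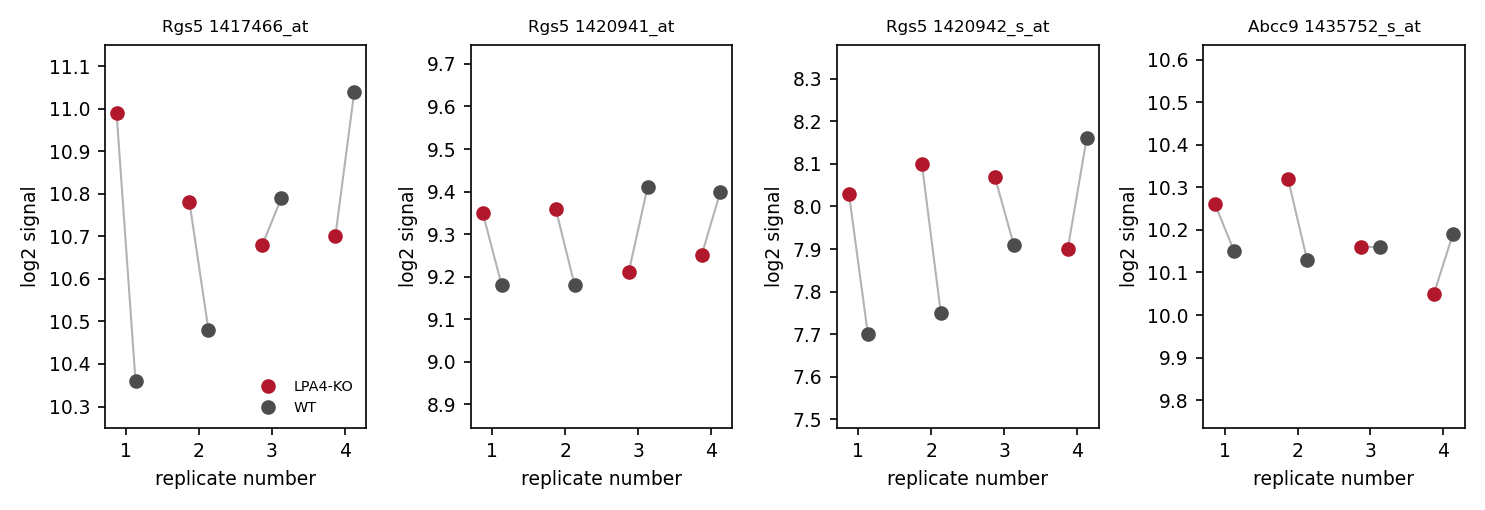
Log2 signal of the 3 varying probe sets of Rgs5 and of the probe set that represents Abcc9, by replicate number, with LPA4-KO (red) left of WT (grey) and a line joining the 2 arrays of a number. LPA4-KO lies above WT in numbers 1 and 2 for all 4 probe sets, and below WT in number 4.

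Lists of genes that act with the members held at most 1 passing gene each over all genes. Of 28 measured genes of the Notch pathway, Notch3 included, 0 fell and 1, the ligand gene Dll3, was called higher although it was near constant, with a difference under 0.01, and its call was lost with the replicate block (limma adjusted p = 0.109). Over all genes 2.39% passed as higher and 1.64% as lower. The Notch ligand gene Jag1 had a log2 signal of 9.95, 9.89, 9.92 and 9.69 in LPA4-KO mice and 9.79, 9.75, 9.97 and 9.67 in WT mice, which overlapped (difference 0.07, limma adjusted p = 0.682). Dll4, the Notch ligand of endothelial tip cells, and the Notch target Heyl were near constant. The Notch target Hey1 was lower in every LPA4-KO array (7.38 to 7.47) than in any WT array (7.56 to 7.72), by -0.19 ± 0.04 (SE); it missed the threshold over all genes (limma adjusted p = 0.0538), and passed among varying genes (0.0286) but not with the replicate block there (0.0735).

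Of 20 genes of platelet-derived growth factor signalling and pericyte recruitment 0 passed over all genes, and among the 14 varying ones 1 was higher and 3 were lower (14.9% and 12.2% of all varying genes), with a median difference of -0.03 over all 20 and -0.21 over those 14. Pdgfrb, the receptor that holds pericytes on vessels, had a log2 signal of 9.82, 9.96, 9.49 and 9.54 in LPA4-KO mice and 9.82, 9.96, 9.83 and 10.00 in WT mice. The genotypes matched in numbers 1 and 2 and parted in numbers 3 and 4, and the difference of -0.20 ± 0.12 (SE) did not pass (limma adjusted p = 0.375). Its ligand gene Pdgfb averaged 7.86 ± 0.17 in LPA4-KO and 8.09 ± 0.24 in WT (SD, n = 4 each), without passing (limma adjusted p = 0.391). Of 8 genes of ATP-sensitive and related inward rectifier potassium channels, Abcc9 and Kcnj8 included, 0 passed and 3 varied; Abcc8 and Kcnj11, the subunits used by pancreatic beta cells, were near constant. Of 16 RGS and G protein genes, Rgs5 included, 0 passed, and their median difference was under 0.01 in size. Rgs4, which is also found in mural cells, differed by -0.08 (limma adjusted p = 0.791), and Rgs16 by -0.06 (0.258).

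Among 18 basement membrane genes and other binding partners of Mcam and Cspg4, Lama5 fell, and 0 rose. Lama5, a laminin chain of mature vessel basement membrane, was 7.38, 7.56, 7.41 and 7.47 in LPA4-KO mice and 7.65, 7.79, 7.81 and 7.75 in WT mice, without overlap. Its difference was -0.29 ± 0.05 (SE, limma adjusted p = 0.0408), and this call was lost in each of the 8 fits that leave out 1 mouse and with the replicate block (0.106), but not among varying genes with the block (0.0318). Lama4, the laminin chain in the ligand of Mcam, was lower in every LPA4-KO array (9.73 to 9.91) than in any WT array (10.03 to 10.42). Its difference of -0.40 ± 0.09 (SE) missed the threshold over all genes (limma adjusted p = 0.0625) and passed in the fit of varying genes (0.0170), also with the replicate block (0.0436). In all, 5 of the 13 varying genes of this list were lower among varying genes, where 12.2% of genes were.

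Of 21 other genes enriched in mural cells Gja4 fell and 0 rose. The median difference was under 0.01 in size over all 21 and -0.15 over the 10 that varied. Gja4, a connexin of arterial endothelium and mural cells, was 7.63, 7.76, 7.51 and 7.54 in LPA4-KO mice and 8.03, 8.22, 8.03 and 7.98 in WT mice, without overlap. It differed by -0.46 ± 0.08 (SE, limma adjusted p = 0.0350); the call was lost with the replicate block (0.0697) and in 7 of the 8 fits that leave out 1 mouse, but not among varying genes with the block (0.0201). The matrix protein gene Vtn, a marker of brain pericytes, was 7.80, 7.94, 7.89 and 7.71 in LPA4-KO mice and 7.90, 8.15, 8.02 and 8.08 in WT mice. The 2 ranges overlapped only at 7.94 in LPA4-KO mouse 2 against 7.90 in WT mouse 1, and the difference of -0.21 did not pass (limma adjusted p = 0.158). The intermediate filament gene Des, which skeletal muscle also expresses strongly, differed by -0.33 ± 0.36 (SE, limma adjusted p = 0.652), and the aminopeptidase gene Anpep was near constant.

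**Figure D3:**
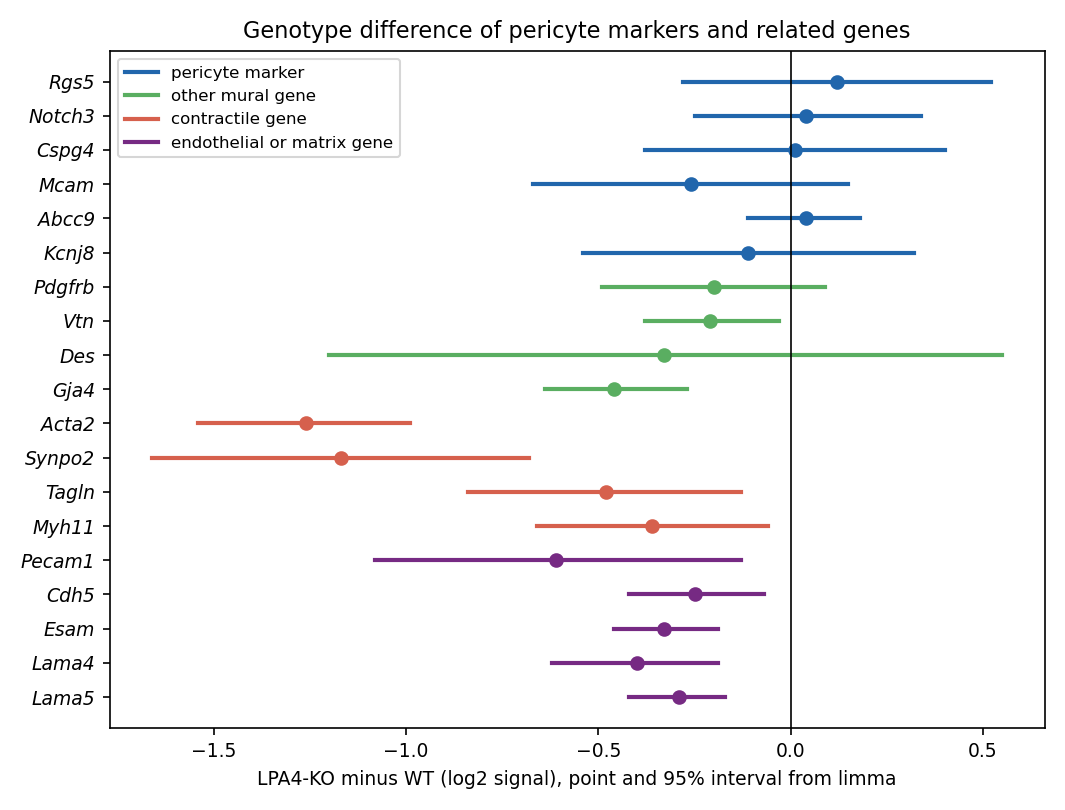
LPA4-KO minus WT difference (log2 signal) with its unadjusted 95% interval from limma over all genes, for the 6 pericyte markers (blue), other mural genes (green), contractile genes (red) and endothelial or matrix genes (purple). The interval of each pericyte marker holds 0 and that of Acta2 runs from -1.54 to -0.99.

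Contractile genes of smooth muscle, which pericytes of capillaries largely lack, had the largest median difference of the 3 mural lists. Of 14 measured genes 2 fell, Acta2 and the actin-binding protein gene Synpo2, and 0 rose; 7 were lower in every LPA4-KO array than in any WT array, against 7.00% of all genes. The median difference was -0.27 for these 14 genes and 0.02 for the 6 pericyte markers; no test of one list against the other was made. Acta2, smooth muscle actin, was 10.76, 11.09, 11.20 and 10.85 in LPA4-KO mice and 12.28, 12.11, 12.22 and 12.35 in WT mice. The genotypes stood more than a log2 unit apart in their means, by -1.26 ± 0.11 (SE, limma adjusted p = 0.0134). The call held in each of the 8 fits that leave out 1 mouse and was lost over all genes with the replicate block (0.0975), but not among varying genes with it (0.0201). The lowest bound of any pericyte marker's 95% interval was -0.67, for Mcam, and the interval of Acta2 was -1.54 to -0.99.

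Synpo2 differed by -1.17 ± 0.20 (SE, limma adjusted p = 0.0385), a call lost with the replicate block (0.171) and in 7 of the 8 fits that leave out 1 mouse, but not among varying genes with the block (0.0330). Tagln and Myh11, contractile proteins of smooth muscle, differed by -0.48 and -0.36 without passing (limma adjusted p = 0.122 and 0.156). In the fit of varying genes Tagln passed (0.0349, and 0.0348 with the replicate block), and Myh11 only with the block (0.0377). Cnn1 was near constant. The probe set of Acta2 shares probes with other transcripts, so related actin genes can contribute to its value.

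Other cell types of the vessel bed and of the depot moved as follows beside the members. Of 20 blood endothelium genes Esam fell (-0.33 ± 0.06, SE, limma adjusted p = 0.0381, or 0.155 with the replicate block) and 0 rose. This call was lost in 7 of the 8 fits that leave out 1 mouse. Among the 18 varying endothelial genes 8 were lower in the fit of varying genes, against 12.2% of all varying genes. The endothelial junction genes Pecam1 and Cdh5 differed by -0.61 and -0.25 without passing over all genes (limma adjusted p = 0.136 and 0.115). The list mean was 9.38 to 9.59 in LPA4-KO arrays and 9.56 to 9.83 in WT arrays, whereas the mean of the 6 pericyte markers was 9.17 to 9.44 in LPA4-KO arrays and 9.26 to 9.57 in WT arrays. Of 7 lymphatic endothelium genes 0 passed.

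Of 13 Schwann cell and nerve genes Cnp, a myelin enzyme gene, fell (-0.57, limma adjusted p = 0.0294, or 0.112 with the replicate block) and 0 rose; their list mean was 7.15 to 7.41 in LPA4-KO and 7.48 to 7.78 in WT. Of 14 macrophage genes 0 passed, with list means of 9.31 to 9.49 in LPA4-KO and 8.47 to 9.72 in WT. Of 16 skeletal muscle genes 0 passed. Clec3b (0.71) and Cd55 (0.28) rose among 13 genes of progenitors and fibroblasts, of which 0 fell. Of 12 mature adipocyte genes Retn (0.26) and Adipoq (0.25) rose and 0 fell, where 2.39% of all genes rose and 1.64% fell. The adipocyte list went both ways, with 4 genes higher and 3 lower in LPA4-KO without overlap. Its median difference was under 0.01 in size. Among its 10 varying genes 3 were higher and 1 was lower in the fit of varying genes. The calls of Clec3b, Cd55, Retn and Adipoq were lost with the replicate block (limma adjusted p from 0.107 to 0.175), as was every call over all genes. With the block among varying genes Esam (0.0371), Cnp (0.0242), Clec3b (0.0249), Cd55 (0.0324) and Retn (0.0337) passed and Adipoq (0.0534) did not. Over all genes the calls of Cnp, Clec3b, Cd55, Retn and Adipoq were each lost in at least 7 of the 8 fits that leave out 1 mouse. Adipoq, which defines the tissue, had a mean log2 signal of 13.94 in LPA4-KO and 13.70 in WT. The part of these cell types in the values of the pericyte markers was not tested.

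**Figure D4:**
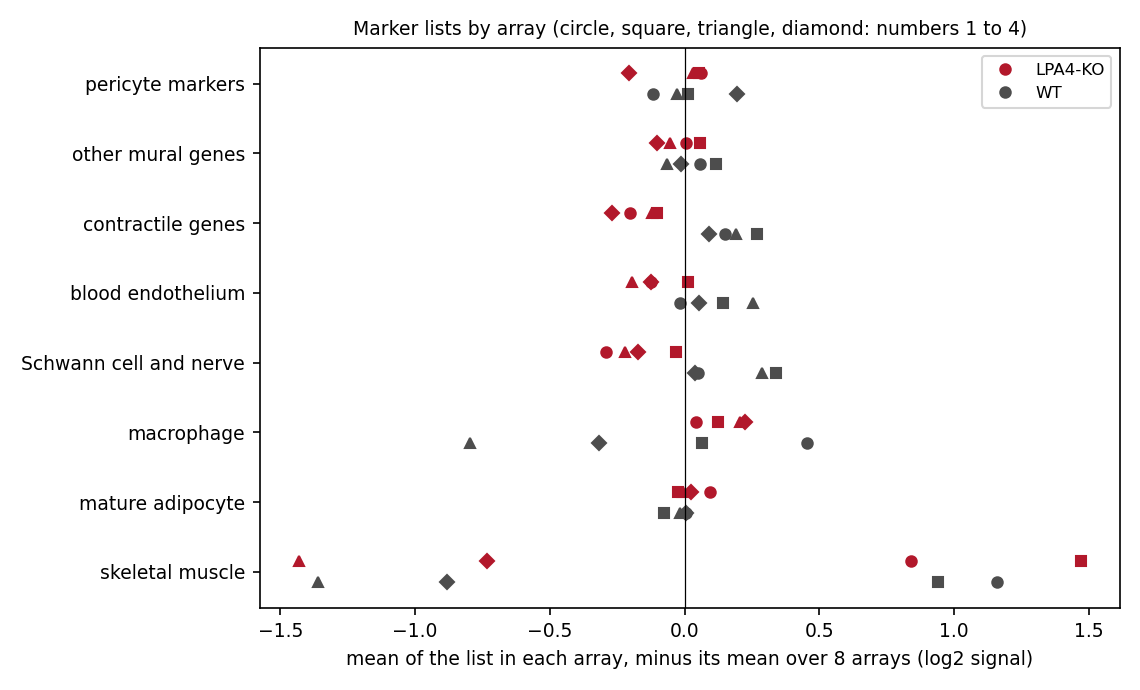
Mean of each marker list in each array, centred on its mean over the 8 arrays (log2 signal), with LPA4-KO (red) above WT (grey) and the marker shape giving the replicate number. The genotypes overlap for the pericyte markers and not for the contractile or the Schwann cell and nerve list, and skeletal muscle parts numbers 1 and 2 from 3 and 4.

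Genes with the most similar pattern over the 8 arrays were sought for each member with an SD of at least 0.1, among 4243 genes with such an SD. Likeness was the root mean square difference between the log2 values of 2 genes, each centred on its own mean. Rgs5 was nearest to Zfp58 (0.0993) and Glyr1 (0.12), Notch3 to Fam217b (0.0807) and Myadm (0.0840), and Cspg4 to Pdk1 (0.0925) and B830008H07Rik (0.0970). Mcam was nearest to Mrps6 (0.0876) and Oxtr (0.0893), and Kcnj8 to Ets2 (0.106) and Pcdh17 (0.12). None of the 10 nearest genes was another pericyte marker, but Abcc9 (SD 0.0823) was left out of the search by the SD limit. None of the 10 passed in limma (adjusted p from 0.410 to 0.969), but they were picked for resembling members that did not pass. Between members the smallest such distance was 0.145, for Notch3 and Abcc9, and the largest 0.342, for Rgs5 and Mcam. Abcc9 and Kcnj8 stood at 0.180. The distance also depends on each gene's spread, which was smallest for Abcc9. The Pearson correlation over the 8 arrays was 0.73 for Abcc9 and Kcnj8 and 0.38 for Notch3 and Abcc9.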

How the data were processed

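The authors deposited a table of log2 signals, 1 value per probe set and array; the log2 scale was read from the values (4.93 to 14.3; array medians 6.73 to 6.74). Per the labels' protocols, 100 ng of total RNA per sample was labelled with biotin by a 3' amplification kit. The submitters' processing notes name R 2.14.0. How background was corrected and how signals were normalised and summarised is not given in the sources used here, nor is a genome build.

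The platform annotation gave 1 gene for 34945 probe sets, several for 932 and none for 9160; 64 were controls. The genotypes were compared in R 4.3.3 with limma 3.58.1 (a two-sided test from lmFit and eBayes) over all 18193 genes, with Benjamini-Hochberg adjustment and a threshold of 0.05; limma estimated 0.332 prior degrees of freedom, so each gene's own spread weighs most. The fit was tested on simulated data with noise independent between arrays, whereas the arrays here deviated together by replicate number. The number of arrays limits the precision.

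Arrays of the same replicate number deviated together from their genotype means, with correlations across genes of 0.315, 0.486, 0.189 and 0.244 for numbers 1 to 4. All exceed 0.1, so the numbers were treated as pairs in the replicate block and the paired permutation, a pairing that comes from the data alone. The main limma fit had no pairing. Unlike numbers of the same set also exceeded 0.1, as LPA4-KO 2 with WT 1 (0.22) and LPA4-KO 1 with WT 2 (0.107). The rule therefore does not tell pairs from number sets. LPA4-KO 3 correlated more with WT 4 (0.364), and LPA4-KO 4 with WT 3 (0.266), than with its own number. Of 223 genes in 15 lists 213 were measured. The text names all members, fixed partner genes, up to 4 passing genes per list and the 2 nearest genes of each member. The members, lists and alternatives were chosen with earlier results of these data known; the interaction test and the replicate block among varying genes were added after seeing the data.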

Additional observations from a re-analysis of the deposited data

Results flagged for a closer look

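In 2 of 136 groups of 4 mice a single value stood far from the rest, a smaller share than the about 1 in 20 that chance gives. Kcnj8 was low in WT mouse 1 (9.22, against 9.44 to 9.47 in the other WT mice), and the mean of the 6 pericyte markers was low in LPA4-KO mouse 4 (9.17, against 9.41 to 9.44 in the other LPA4-KO mice). Rgs5 and Abcc9 differed between the genotypes in opposite directions in the 2 sets of replicate numbers: Rgs5 by 0.47 in numbers 1 and 2 and -0.22 in numbers 3 and 4, Abcc9 by 0.15 and -0.08. The limma interaction did not pass for either (adjusted p = 0.804 and 0.808 over all genes), and the number sets were taken from the data.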

How the results depend on the processing

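Across the alternatives 0 of the 6 pericyte markers passed in limma, and their adjusted p was never below 0.22. The alternatives left out each mouse in turn, took the replicate number or the 2 number sets as a term, used other probe sets per gene, quantile normalisation, bright or varying genes only, or a trended robust variance. Of the 13 probe sets 0 passed when a mouse was left out, with either term or after quantile normalisation, and 0 of the 9 varying ones among varying probe sets. Of 102 such member values 93 kept their sign. In part this was fixed in advance, since added terms, gene filters and the trended robust variance leave a gene's difference unchanged. When a single mouse was left out, the differences ranged from 0.02 to 0.25 for Rgs5, -0.36 to -0.14 for Mcam, -0.03 to 0.12 for Notch3, -0.09 to 0.12 for Cspg4, -0.26 to 0.02 for Kcnj8 and -0.0047 to 0.09 for Abcc9, so the sign turned for the last 4. For Notch3 it also turned with the brightest probe set without shared probes (-0.00018), which was near constant. The exact permutation p ran from 0.229 (Mcam) to 1 (Cspg4), where 4 against 4 allows 0.0286, and exact paired permutation over the numbers gave 0.25 to 1, where 4 pairs allow 0.125. Against 733 passing genes, 0 passed with the replicate block (3703 at an unadjusted p under 0.05) and 1402 among varying genes, and leaving out 1 mouse gave 10 (LPA4-KO mouse 3) to 253 genes. The fits without a mouse use fewer arrays and the fit of varying genes fewer genes. The replicate block uses the same arrays and genes but leaves fewer degrees of freedom for the error. The cause of the change in its count was not tested. With the replicate block over all genes 0 passed, so no call of a pericyte marker could change there.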

Other observations

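Signals of 18S ribosomal RNA were read by 3 control probe sets. Each was higher in every LPA4-KO array than in any WT array, by 0.44, 0.22 and 0.28 on the log2 scale. The exact permutation p was 0.0286 for each, the smallest that 4 against 4 arrays can give. All 3 read the same RNA in the same samples and are not independent. Over all genes 16.2% also separated the genotypes without overlap, and 33.2% of varying genes did. The 6 pericyte markers overlapped between the same arrays, and the part of the ribosomal signal in their values was not tested.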
